A study of Homo sapiens with 23 samples.

Results

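The hemidesmosome and its ligand laminin-332 were followed through 8 genes, LAMA3, LAMB3, ITGA6, ITGB4, CD151, COL17A1, DST and PLEC, in 13 lines made from MCF10A, a non-transformed human mammary epithelial line. The members were chosen by gene name, and each matched 1 of the 58358 genes of the RNA table. All 8 had a level of at least 1 on the log2(TPM+1) scale in at least 3 lines, where TPM is a share of transcripts scaled to the same total in each library, and so were among the 14884 genes tested.

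The 13 lines are 10 that stably express a missense p53 mutant with a V5 tag on top of their own wild-type p53, and 3 controls. Of the mutants, R248Q, R248W, R273C and R273H alter residues that touch DNA (contact lines), and G245S, H179R, R175H, Y163C, Y220C and Y234C alter residues that hold the fold (structural lines). The controls are the parental line (WT), a line with p53 knocked down (WTKD) and a line with tagged wild-type p53 overexpressed (WTOE). The mutant lines and WTOE were made by lentiviral transduction, the mutants in one vector and WTOE in another, and WTKD with short hairpin RNA. No line with an empty vector is among the 13. Vector and mutation therefore cannot be told apart between mutant and control lines. All 13 were grown in the same medium without treatment, and each gave 1 RNA library, so the lines themselves serve as the samples and p-values measure only the spread between them. Chromatin bound by V5-tagged p53 was profiled in WTOE, R273C, R273H, Y220C and Y234C, with 1 peak list each.

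Hemidesmosomes are the junctions that rivet the basal side of an epithelial cell to the basement membrane. Outside the cell, the integrin alpha-6 beta-4 binds laminin-332, a laminin that basal epithelial cells secrete and that holds the chains encoded by LAMA3 and LAMB3. Inside, plectin and the epithelial form of dystonin tie the integrin and collagen XVII to keratin filaments. In the mammary gland these are genes of the basal, myoepithelial layer. The study scored each line for mammosphere polarity (the ratio of laminin staining inside a sphere to that at its edge, higher when laminin is misplaced), for resistance to anoikis (survival without attachment) and for resistance to doxorubicin-induced apoptosis, and the question here is how the hemidesmosome genes lie against these scores and against the class of p53 mutation. Score values are the study's own and only their use as covariates is given here.

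Across the panel the 8 genes were well expressed, with mean levels from 5.68 for COL17A1 to 7.89 for ITGA6, where the median mean of the tested genes was 3.37. They differed in how much they varied. The SD over the 13 lines was 1.90 for COL17A1 and 1.503 for LAMA3, larger than that of 96.9% and 87.9% of tested genes. It was 0.58 for PLEC and 0.71 for CD151, larger than that of 10.4% and 23.4%. The line expressing R273H stood apart for 5 of the 8 genes (LAMA3, LAMB3, ITGA6, ITGB4 and COL17A1), each strictly lowest there. Over all tested genes, 16.4% were strictly lowest in R273H, a library whose median tested gene lay at 2.85 where 11 of the other lines lay between 3.47 and 3.85 and Y234C at 2.63. With each line centred on its median, or after quantile normalization, the same count was 5 and 5 of 8. The share of all tested genes strictly lowest in R273H is not given for these 2 settings, so those counts have no background beside them.

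**Figure D1:**
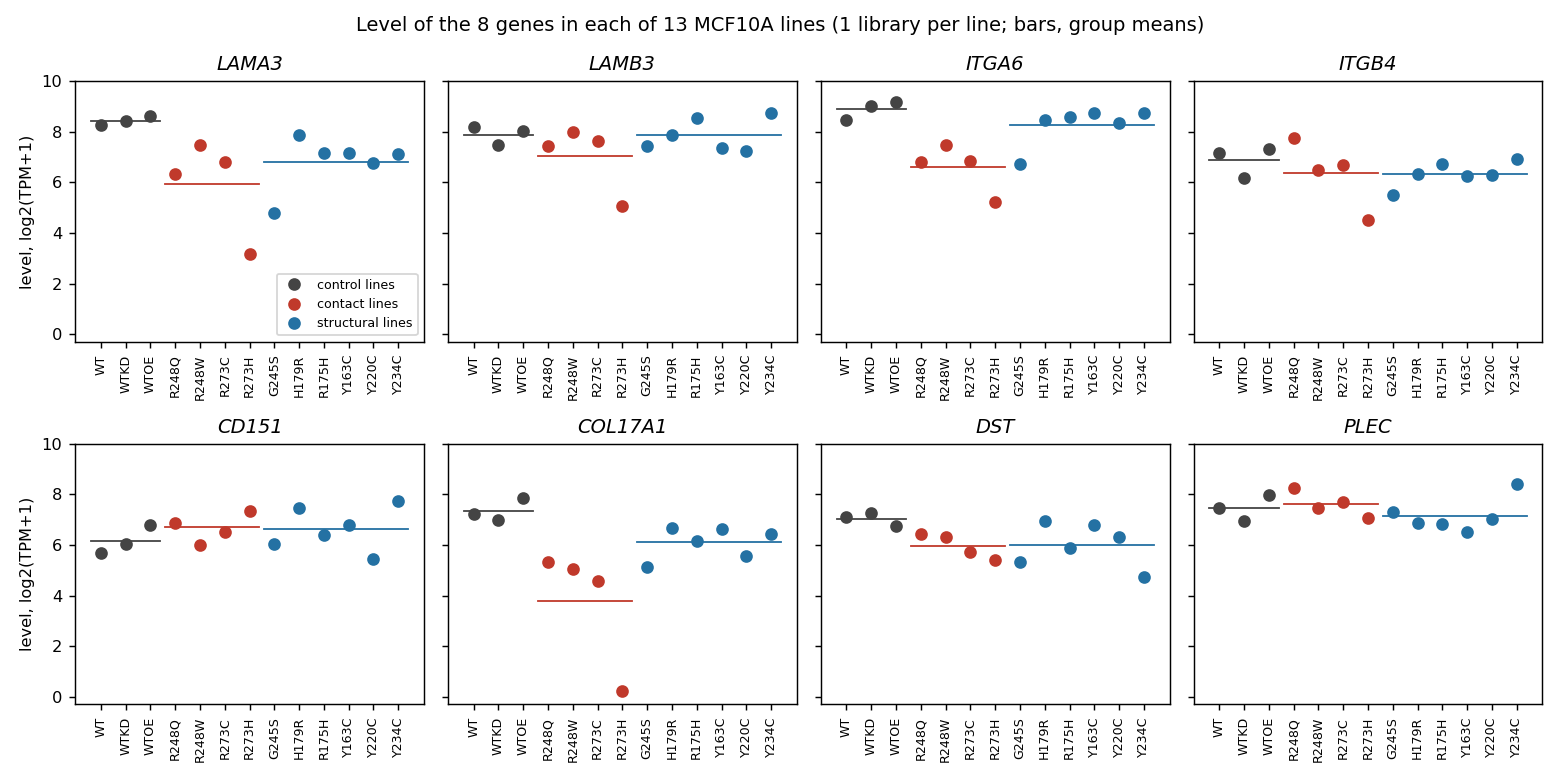
Level of each of the 8 genes, in log2(TPM+1), for the 13 lines in the order control (grey), contact (red) and structural (blue), 1 point per library, with bars at the group means. COL17A1 lies at 0.22 in R273H and at 4.58 or more in every other line, whereas PLEC and CD151 span 1.89 and 2.31 over the whole panel.

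LAMA3 (ENSG00000053747) encodes the alpha-3 chain of laminin-332, the chain that the integrins grip. The gene spans chr18:23689453-23956222 on the plus strand of GRCh38. The RefSeq promoter of LAMA3 lies inside that span, at the start of the shorter transcripts, and is shown with a LAMB3 promoter, 1 of 3 RefSeq gives for that gene, because the AP-1 motif TGANTCA is found in both. Capitals mark that motif, which reads the same on both strands, and sequences run 5′ to 3′ from 250 bases before to 50 after the start.
LAMA3 promoter, chr18:23872770-23873069, plus strand: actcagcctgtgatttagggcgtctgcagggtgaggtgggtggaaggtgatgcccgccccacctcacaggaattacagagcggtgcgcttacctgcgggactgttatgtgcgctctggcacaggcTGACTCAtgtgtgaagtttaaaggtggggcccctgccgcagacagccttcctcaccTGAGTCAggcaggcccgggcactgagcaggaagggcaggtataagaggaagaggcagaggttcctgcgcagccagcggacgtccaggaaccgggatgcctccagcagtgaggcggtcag
LAMB3 promoter, chr1:209651325-209651624, minus strand: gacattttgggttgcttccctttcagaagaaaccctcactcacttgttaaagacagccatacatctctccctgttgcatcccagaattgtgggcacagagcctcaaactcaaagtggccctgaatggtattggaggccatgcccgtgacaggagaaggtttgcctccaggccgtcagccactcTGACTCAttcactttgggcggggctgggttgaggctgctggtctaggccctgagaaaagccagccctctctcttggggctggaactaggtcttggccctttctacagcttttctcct
TGANTCA begins 125 and 69 bases before the LAMA3 start and 67 bases before this LAMB3 start. The other LAMB3 promoters lack it. TGANTCA is not confined to these genes, as a DST promoter also holds it, after the start. It occurs in 7.71% of the 35116 RefSeq promoters of that length. A match describes the letters only.

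In the controls LAMA3 lay at 8.26 in WT, 8.40 in WTKD and 8.61 in WTOE. In the contact lines it lay at 6.33 in R248Q, 7.47 in R248W, 6.81 in R273C and 3.18 in R273H. In the structural lines it ranged from 4.79 in G245S through a median of 7.14 to 7.85 in H179R. Every mutant line was thus below every control line. The lowest mutant, R273H, held 8.07 TPM and G245S 26.7 TPM, against 306 to 391 TPM in the controls. In bulk RNA, fewer cells that express a gene and less RNA per cell cannot be told apart.

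LAMB3 (ENSG00000196878, chr1:209614870-209652425, minus strand) encodes the beta-3 chain, which occurs in laminin-332 alone. It lay at 8.17 in WT, 7.47 in WTKD and 8.01 in WTOE. The contact lines held 7.42 in R248Q, 7.97 in R248W, 7.64 in R273C and 5.08 in R273H, and the structural lines 7.22 to 8.74 around a median of 7.66. Apart from R273H the groups overlapped throughout, and the highest level was that of Y234C. In R273H the gene held 32.9 TPM, and in Y234C 427 TPM.

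**Figure D2:**
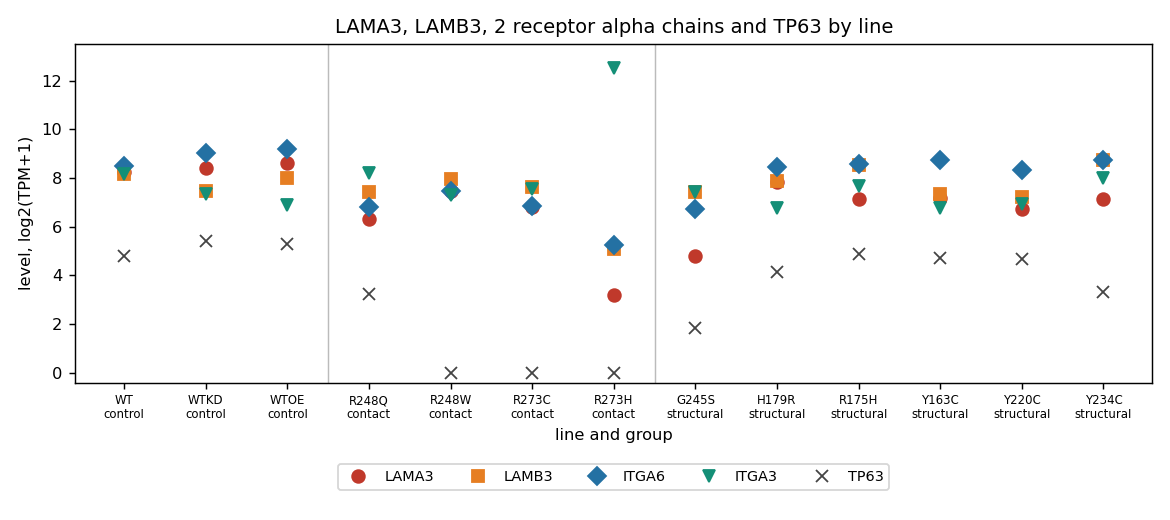
Level, in log2(TPM+1), of the laminin-332 chains LAMA3 and LAMB3, of the integrin chains ITGA6 and ITGA3 and of TP63 in each line, 1 symbol per library, with lines dividing the groups. In R273H these laminin chains lie at 3.18 and 5.08 while ITGA3 lies at 12.5, and TP63 is listed at 0 in R248W, R273C and R273H.

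ITGA6 (ENSG00000091409) encodes the alpha-6 chain of the hemidesmosome integrin and spans chr2:172427354-172506459 on the plus strand. Its downstream RefSeq promoter is shown because ITGA6 gave the lowest p of the 8 genes against both the polarity and the apoptosis score, and because it holds neither TGANTCA nor the p53 consensus decamer.
ITGA6 promoter, chr2:172427336-172427635, plus strand: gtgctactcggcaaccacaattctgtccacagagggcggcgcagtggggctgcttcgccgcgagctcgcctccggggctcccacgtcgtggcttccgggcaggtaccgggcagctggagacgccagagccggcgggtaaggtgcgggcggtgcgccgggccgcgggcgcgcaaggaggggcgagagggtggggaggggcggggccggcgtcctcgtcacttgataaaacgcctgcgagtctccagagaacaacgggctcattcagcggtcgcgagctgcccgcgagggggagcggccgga
In the controls ITGA6 lay at 8.47 in WT, 9.01 in WTKD and 9.19 in WTOE. The contact lines were lower, at 6.80 in R248Q, 7.47 in R248W, 6.86 in R273C and 5.23 in R273H. Of the structural lines, G245S was at 6.74 and the other 5 between 8.33 and 8.75. No line fell between 7.47 and 8.33, and G245S was the only structural line on the lower side of that gap.

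ITGB4 (ENSG00000132470, chr17:75721328-75757818, plus strand) encodes the beta-4 chain, which pairs with alpha-6 alone and carries the long tail that plectin binds. Its controls lay at 7.16 in WT, 6.19 in WTKD and 7.31 in WTOE. The contact lines held both ends of the range, at 7.76 in R248Q and 4.51 in R273H, with R248W at 6.497 and R273C at 6.70. The structural lines ranged from 5.49 in G245S to 6.94 in Y234C around a median of 6.30. The groups overlapped, and the alpha-6 and beta-4 chains correlated over the lines with Pearson r of 0.53 and Spearman rho of 0.31, falling to an r of 0.07 without R273H.

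CD151 (ENSG00000177697, chr11:832887-839831, plus strand) encodes the tetraspanin that sits beside the laminin-binding integrins. It ranged from 5.45 in Y220C to 7.76 in Y234C, with 5.67 in WT, 6.03 in WTKD and 6.79 in WTOE. In R273H, where the integrin chains were lowest, CD151 lay at 7.36, above all 3 controls. The gene shares part of its span with POLR2L, and the library kit is not described as keeping strand, so reads of overlapping genes cannot be told apart.

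COL17A1 (ENSG00000065618, chr10:104031286-104085880, minus strand) encodes collagen XVII, the transmembrane collagen of the hemidesmosome. Its RefSeq promoter is shown because this gene varied most, and because it alone of the RefSeq promoters of LAMA3, LAMB3, ITGA6, COL17A1 and DST held the p53 consensus decamer, in capitals, beginning 55 bases before the start. The decamer occurs in 6.63% of RefSeq promoters of that length.
COL17A1 promoter, chr10:104085831-104086130, minus strand: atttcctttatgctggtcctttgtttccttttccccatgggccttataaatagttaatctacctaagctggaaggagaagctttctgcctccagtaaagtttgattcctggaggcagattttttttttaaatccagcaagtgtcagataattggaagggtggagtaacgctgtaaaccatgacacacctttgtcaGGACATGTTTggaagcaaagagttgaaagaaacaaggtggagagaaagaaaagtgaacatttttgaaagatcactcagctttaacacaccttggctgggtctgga
COL17A1 lay at 7.24 in WT, 6.9995 in WTKD and 7.85 in WTOE. The contact lines were at 5.32 in R248Q, 5.07 in R248W, 4.58 in R273C and 0.22 in R273H. The structural lines ranged from 5.14 in G245S through a median of 6.30 to 6.69 in H179R. As for LAMA3, every mutant line was below every control line. The gene was near its floor in R273H, at 0.164 TPM, against 22.9 TPM in R273C, the next lowest line.

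DST (ENSG00000151914, chr6:56457987-56954830, minus strand) gives rise to several dystonins, of which the epithelial form is the hemidesmosome plaque protein, and a value per gene cannot separate them. Its controls lay at 7.11 in WT, 7.26 in WTKD and 6.76 in WTOE. Contact lines were at 6.45 in R248Q, 6.33 in R248W, 5.71 in R273C and 5.39 in R273H, all below the controls. Structural lines ranged from 4.74 in Y234C to 6.96 in H179R around a median of 6.10, so that this group overlapped the controls.

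PLEC (ENSG00000178209, on chromosome 8) encodes plectin, the link to keratin filaments, and was the steadiest of the 8 genes. It ranged from 6.52 in Y163C to 8.41 in Y234C, with controls at 7.47 in WT, 6.94 in WTKD and 7.99 in WTOE. The contact lines, between 7.07 and 8.25, and the structural lines, between 6.52 and 8.41, overlapped the controls. R273H, at 7.07, was inside the control range.

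The genes also differed in how closely they tracked each other. Among LAMA3, LAMB3, ITGA6, ITGB4 and COL17A1, the 5 genes that were lowest in R273H and were grouped for that reason, the 10 pairwise Pearson correlations over 13 lines ran from 0.53 to 0.91 with a median of 0.74. The other 18 pairs, which involve CD151, DST or PLEC, ran from -0.37 to 0.65 with a median of 0.08. Much of this rested on R273H. Without it the 10 correlations ran from 0.07 to 0.87 with a median of 0.35, and those that stayed above 0.7 were LAMA3 with ITGA6 (0.76), LAMA3 with COL17A1 (0.75) and ITGA6 with COL17A1 (0.87). The other 18 pairs then ran from -0.43 to 0.66 with a median of 0.17. DST correlated with LAMA3 at 0.65 both with and without R273H, above LAMB3 (0.33) and ITGB4 (0.38) with LAMA3 without that line. All these values come from the same 13 libraries and are given as a description.

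**Figure D3:**
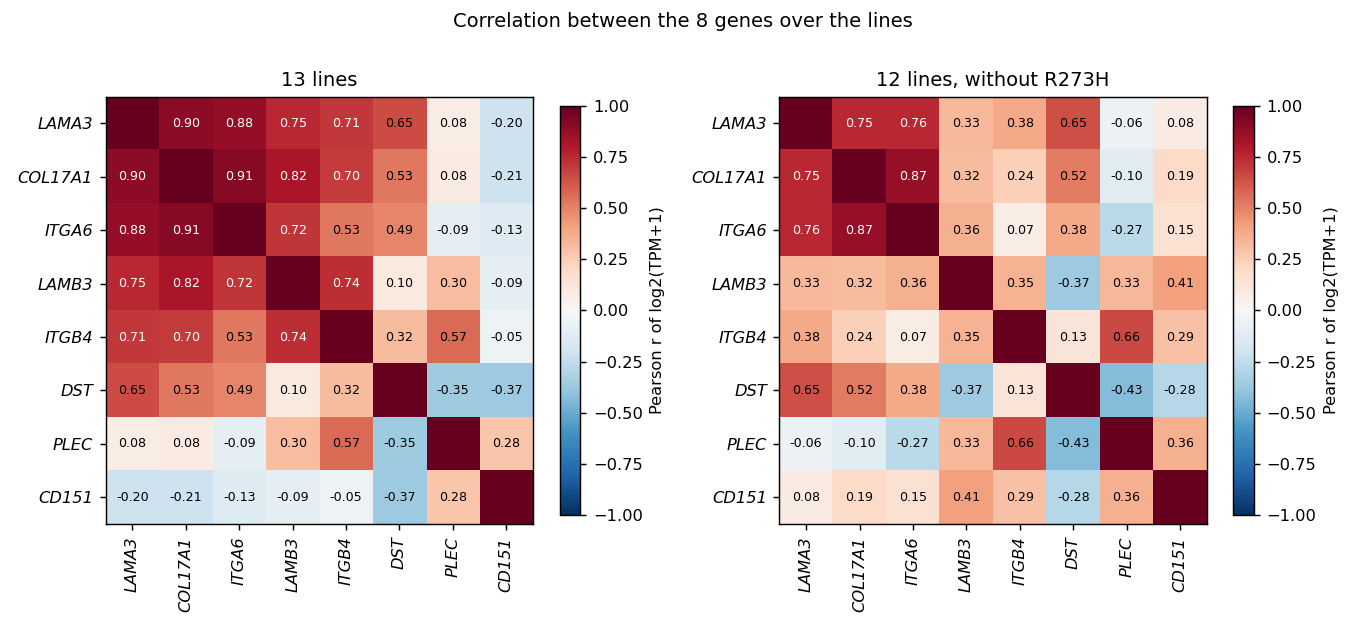
Pearson correlation of log2(TPM+1) between the 8 genes over 13 lines (left) and over 12 lines without R273H (right), coloured from -1 (blue) to 1 (red) with the value in each cell. The block of LAMA3, COL17A1 and ITGA6 stays at 0.75 or more on the right, while LAMB3 and ITGB4 drop to 0.38 or less with it.

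Genes with a profile most like the mean standardised profile of the 8 were looked for over all other tested genes outside the partner list. These were RGS19 (Pearson r of 0.93), AC018629.1 (0.93), TPCN1 (0.91), CLN8 (0.90) and COTL1 (0.89), over 13 lines. All 5 were lowest in R273H. Without that line their r ranged from 0.74 for COTL1 to 0.90 for TPCN1, a channel of endolysosomes.

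Against the polarity score, ITGA6, LAMA3 and COL17A1 were lower in lines with more laminin inside the sphere. Per SD of the score, the difference in log2(TPM+1) was -0.85 (SE 0.25) for ITGA6, -0.92 (SE 0.33) for LAMA3 and -1.08 (SE 0.41) for COL17A1. Their Pearson r over 13 lines was -0.72, -0.61 and -0.57, with Spearman rho of -0.80, -0.69 and -0.69. None passed limma's test after Benjamini-Hochberg adjustment over all genes, with adjusted p of 0.452, 0.582 and 0.641. The call rule itself gave 0 of 14884 genes, or 0%, in limma. At an unadjusted p under 0.05 it gave 3 of the 8 members, all lower with a higher score, where 6.98% of tested genes passed. The median over the 8 members was -0.27, and over all tested genes -0.01.

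The other members lay nearer to 0 against polarity. LAMB3 had -0.38 (SE 0.25) per SD, ITGB4 -0.14 (SE 0.25), DST -0.17 (SE 0.24), CD151 0.16 (SE 0.23) and PLEC 0.02 (SE 0.21). The 95% interval of PLEC, from -0.41 to 0.46, shows the sizes that 13 lines leave possible. Without WTOE and R248Q, the lines farthest from the median score, Pearson r was -0.75 for ITGA6, -0.71 for LAMA3 and -0.69 for COL17A1, and that of ITGB4 went from -0.17 to -0.72. Single lines moved the estimates. Without R273H they were -0.66 for ITGA6, -0.62 for LAMA3 and -0.61 for COL17A1, at unadjusted p in limma of 0.00847, 0.0340 and 0.0317. Without R248Q they were -1.20 for ITGA6, -1.53 for LAMA3 and -1.92 for COL17A1. Without WTOE, COL17A1 no longer had an unadjusted p under 0.05. Within the 10 mutant lines alone, 1 member, ITGA6 at -0.80, kept an unadjusted p under 0.05 in limma.

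Against resistance to anoikis, the members showed little. All 8 estimates were below 0, from -0.01 (SE 0.24) per SD for DST to -0.60 (SE 0.47) for COL17A1, and ITGA6 had -0.32 (SE 0.32). None of the 8 had an unadjusted p under 0.05 in limma, where 5.05% of tested genes did, and 0% of all genes passed after adjustment. The lowest adjusted p among members was 0.858. The median over the 8 was -0.10, where the median over all tested genes was 0.13, with 68.6% of genes above 0. Without R273H the estimate for COL17A1 was -0.56, at an unadjusted p of 0.0374 in limma, and Pearson r went from -0.32 to -0.58.

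The lowest p-values in the set were against the doxorubicin score. ITGA6, LAMA3, COL17A1 and LAMB3 were higher in lines of higher score, read here as higher resistance after the name the study gives the score, though a remark in the study's text on R248Q and R248W reads the other way. The difference per SD of the score was 0.97 (SE 0.22) for ITGA6, which placed it 23rd of 14884 genes by p, 1.06 (SE 0.30) for LAMA3, 1.33 (SE 0.37) for COL17A1 and 0.51 (SE 0.24) for LAMB3. Pearson r was 0.83, 0.71, 0.70 and 0.57, and Spearman rho 0.70, 0.58, 0.72 and 0.33. After adjustment over all genes in limma, p was 0.270, 0.549, 0.537 and 0.717, so none passed, as was so for 0% of all genes. At an unadjusted p under 0.05 the 4 members stood against 6.91% of tested genes. The remaining estimates were 0.43 (SE 0.23) for ITGB4, 0.37 (SE 0.22) for DST, 0.04 (SE 0.23) for CD151 and -0.13 (SE 0.20) for PLEC. The median over the 8 was 0.47, against 0.05 over all tested genes.

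The plot of levels by score rank shows the form of this relation. The 5 lines of lowest doxorubicin score held the 5 lowest levels of ITGA6, from 5.23 to 7.47, and the other 8 lines lay between 8.33 and 9.19. The same 5 lines held the 5 lowest levels of COL17A1, up to 5.32, with the other 8 lines from 5.55 to 7.85. Within the 8 lines of higher score, Pearson r was -0.28 for ITGA6 and -0.18 for COL17A1. For these 2 genes the relation thus separated 5 lines from 8 and did not grade the 8. All 4 contact lines and G245S make up the 5, so that contact class and low score cannot be told apart over most of this difference. Of the other members' 5 lowest levels, these lines held 4 for LAMA3 and 3 for LAMB3 and for DST. They held 2 for ITGB4 and for CD151 and 0 for PLEC. The cut at 5 lines was not among the planned comparisons. The share of all tested genes that it separates is not given here.

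**Figure D4:**
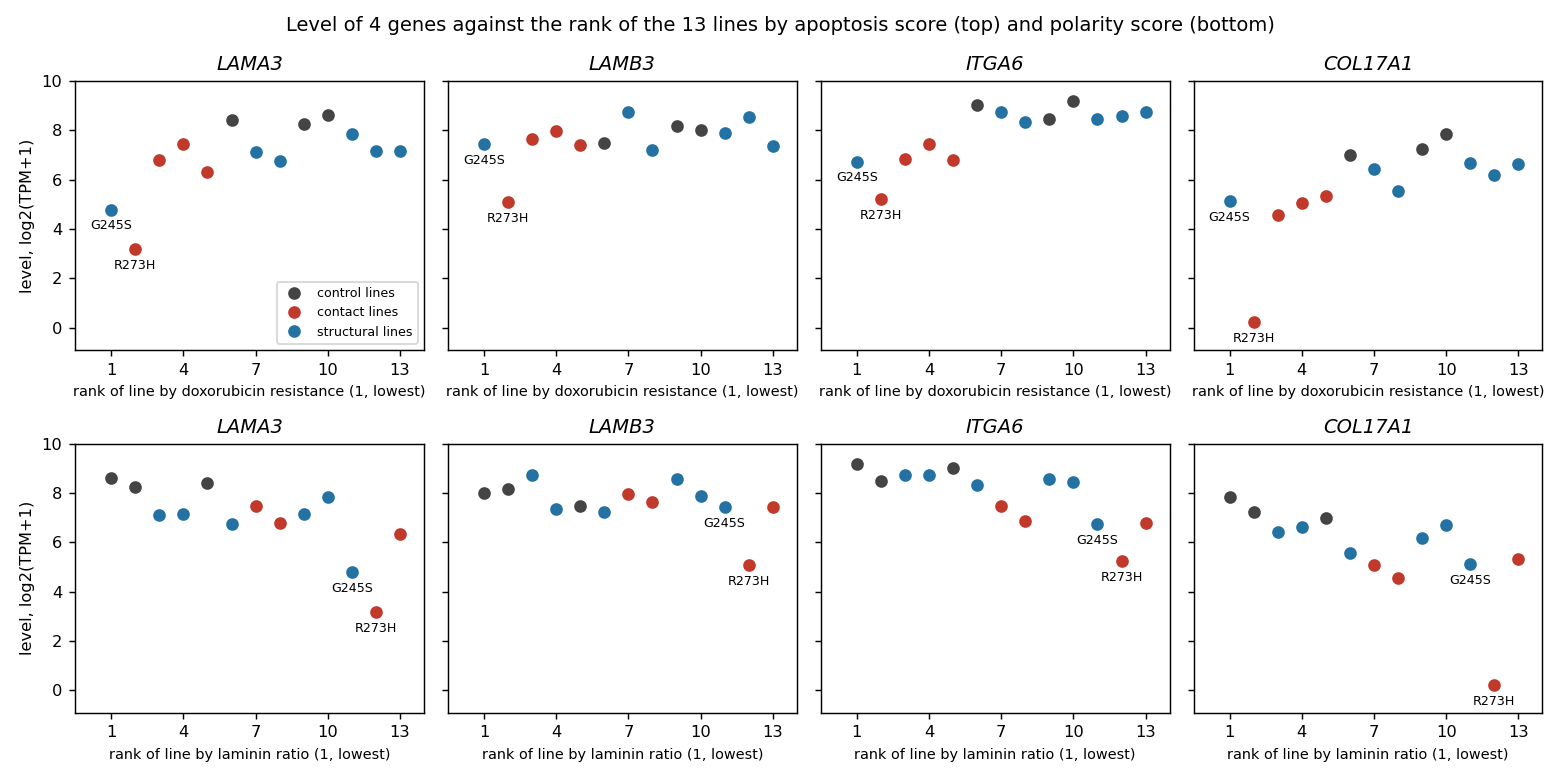
Level of LAMA3, LAMB3, ITGA6 and COL17A1, in log2(TPM+1), against the rank of the 13 lines by apoptosis score (top) and by polarity score (bottom), 1 point per line, coloured by group. In the top row ITGA6 lies at 7.47 or lower in the 5 lines of lowest rank and at 8.33 or higher in the other 8, and R273H and G245S carry the lowest LAMA3.

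R273H and G245S weigh on this result. They are also the lines farthest from the median apoptosis score. Within the 10 mutant lines the estimates were 0.93 for ITGA6, 1.20 for COL17A1, 0.96 for LAMA3 and 0.48 for LAMB3. Without R273H the estimates were 0.76 for ITGA6, 0.70 for COL17A1, 0.68 for LAMA3 and 0.18 for LAMB3, with unadjusted p in limma of 0.00434, 0.0210, 0.0313 and 0.395. Without both R273H and G245S they were 0.81 for ITGA6 and 0.85 for COL17A1, at unadjusted p of 0.0244 and 0.0399 in limma, and 0.22 for LAMA3 and 0.17 for LAMB3, at 0.556 and 0.569. LAMB3 also lost its unadjusted p under 0.05 with any of WT, WTKD, WTOE, R248Q, H179R or R175H left out. Without both lines ITGA6 and COL17A1 kept more of their estimate than LAMA3 and LAMB3 did. Among the lines with the lowest ITGA6 and COL17A1, R273H, R248Q and G245S also held less of the epithelial markers CDH1 and EPCAM. R248W and R273C did not. CDH1 (E-cadherin) lay at 0.25 in R273H, 0.96 in R248Q and 4.47 in G245S, and at 5.41 or more in the other lines. EPCAM lay at 3.51, 2.53 and 5.16 in these, and at 6.70 or more in the others. Other epithelial markers varied. KRT5 lay between 9.98 and 11.85 in all lines. In R273H, R248Q and G245S, KRT14 lay at 0, 8.23 and 3.14, and TP63 at 0, 3.25 and 1.83. Their part in the result was not tested.

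**Figure D5:**
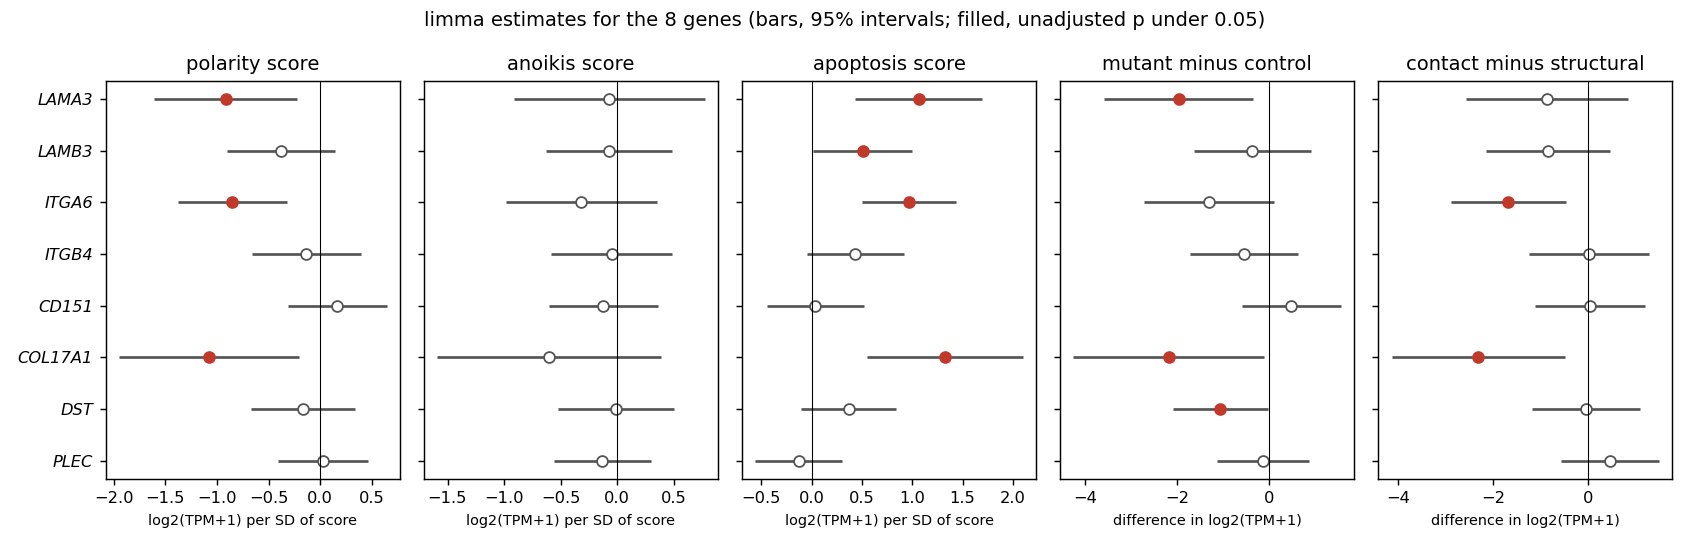
limma estimates for the 8 genes in 5 comparisons, as the difference in log2(TPM+1) per SD of the score (polarity, anoikis, apoptosis) or between groups (mutant minus control, contact minus structural), with bars for 95% intervals and filled points for an unadjusted p under 0.05. Filled points number 3, 0, 4, 3 and 2 of 8, and none passes after adjustment over all genes.

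Between the 10 mutant and the 3 control lines, COL17A1, LAMA3 and DST were lower in the mutants. COL17A1 averaged 5.18 ± 1.89 (SD, n = 10) in mutants and 7.36 ± 0.44 (SD, n = 3) in controls. LAMA3 averaged 6.46 ± 1.42 (SD, n = 10) and 8.43 ± 0.18 (SD, n = 3). The differences in limma were -2.18 (SE 0.98) for COL17A1, -1.96 (SE 0.77) for LAMA3 and -1.05 (SE 0.49) for DST, with adjusted p of 0.932, 0.908 and 0.932. No member passed, and limma called 3 of 14884 genes, or 0.0202%. At an unadjusted p under 0.05 there were 3 members, all lower in mutants, where 4.83% of tested genes passed. Leaving out WTKD or WTOE left 0 of 8 at that level, and leaving out WT or R273C left 1. The share of all tested genes without these lines is not given.

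For LAMA3 and COL17A1 all 10 mutant lines were below all 3 controls. That held for 2 of 8 members, beside 0.779% of tested genes. With each line centred on the median of its tested genes it held for 1 of 8. The share of all tested genes is not given for that setting. Of the other members, ITGA6 differed by -1.30 (SE 0.67), ITGB4 by -0.54 (SE 0.56), LAMB3 by -0.35 (SE 0.60), PLEC by -0.12 (SE 0.47) and CD151 by 0.50 (SE 0.51). The median over the 8 was -0.80, where that over all tested genes was -0.08. Each of G245S, Y220C and R273H had 6 of the 8 genes below all controls, and Y234C had 3 below and 3 above them. The share of all tested genes so placed in each line is not given here. These counts per line therefore describe the 8 genes only and cannot be set against a background.

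Between contact and structural mutants the alpha-6 integrin chain and collagen XVII were lower in the contact lines. ITGA6 averaged 6.59 ± 0.95 (SD, n = 4) in contact and 8.26 ± 0.77 (SD, n = 6) in structural lines. COL17A1 averaged 3.80 ± 2.40 (SD, n = 4) and 6.10 ± 0.62 (SD, n = 6). The differences were -1.67 (SE 0.56) and -2.30 (SE 0.85), with adjusted p of 0.960 for both in limma. None of the 8 passed, with 0% of all genes called, and 2 of 8 had an unadjusted p under 0.05, both lower in contact lines, where 4.93% of tested genes did. G245S, the lowest structural line for ITGA6, lay inside the contact range, and in no member did the groups fail to overlap, as they did for 1.03% of tested genes.

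Without R273H the difference between contact and structural lines was -1.22 for ITGA6 and -1.11 for COL17A1, at unadjusted p of 0.0402 and 0.0430 in limma. For LAMA3 it went from -0.86 (SE 0.80) to 0.06. Without both R273H and Y234C, ITGA6 had -1.12 at an unadjusted p of 0.0507 in limma, COL17A1 -1.05 at 0.0445 and PLEC 0.90 at 0.0266, so that PLEC took the place of ITGA6 among the 2 members under 0.05. Mutants of the same residue also differed. R273H minus R273C was -4.36 for COL17A1, -3.63 for LAMA3, -2.56 for LAMB3, -2.18 for ITGB4, -1.63 for ITGA6 and 0.84 for CD151. R248Q minus R248W was 1.26 for ITGB4 and -1.14 for LAMA3. With 1 library per line these differences have no replicate check.

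Of the 22 partner genes, which cover other laminin chains and laminin receptors, basement membrane proteins, laminin processing enzymes, keratins and TP63, 20 were tested. None passed after adjustment in any of the 5 comparisons in limma. At an unadjusted p under 0.05 there were 2 for polarity, 2 for anoikis, 3 for apoptosis, 4 for mutant against control and 3 for contact against structural lines. In that order, 6.98%, 5.05%, 6.91%, 4.83% and 4.93% of all tested genes were under it.

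TP63, the transcription factor of basal epithelial cells, was the partner with the lowest p against apoptosis and between contact and structural lines. It lay at 4.81 in WT, 5.41 in WTKD and 5.27 in WTOE. It was listed at 0 in R248W, R273C and R273H and lay at 3.25 in R248Q, while structural lines ranged from 1.83 in G245S to 4.87 in R175H. Its estimate was 1.61 (SE 0.36) per SD of the apoptosis score, at an adjusted p of 0.260 in limma, and -3.11 (SE 0.77) in contact against structural lines, at an adjusted p of 0.764. The 5 lines with the lowest TP63 were the same 5 that held the lowest ITGA6 and COL17A1, again without a share of all tested genes beside it. Against anoikis it had -1.08 (SE 0.46), and between mutants and controls -2.49 (SE 1.05).

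ITGA3, the alpha chain of the other laminin-332 integrin, had an estimate of the opposite sign to LAMA3, with -0.79 (SE 0.35) per SD of apoptosis. It lay at 12.5 in R273H and between 6.77 and 8.20 in the other 12 lines. Its r of -0.53 with the apoptosis score went to -0.26 without R273H.

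Among the remaining named partners, BMP1, a protease that trims laminin-332 chains, was higher in mutants than controls by 1.82 (SE 0.57), at an adjusted p of 0.659 in limma. BMP1 lay at 0.18 in WT, 2.51 in WTKD and 1.86 in WTOE. The mutants, from 2.09 in R273H to 4.51 in R248Q, overlapped the controls, and WT was far below the other controls. SDC1 (syndecan-1) had -1.08 (SE 0.48) in mutants minus controls. HSPG2 (perlecan) had 0.51 (SE 0.24) per SD of polarity, where its r of 0.56 went to 0.09 without R248Q and WTOE, so that the relation rests on those lines. It was 1.30 (SE 0.50) higher in contact than structural lines. COL4A2 was 0.92 (SE 0.39) higher in contact lines. LAMA1, the alpha-1 laminin chain, had 0.66 (SE 0.25) per SD of anoikis, and its r of 0.63 went to -0.05 without R248W and R273C, so the relation rests on those lines. The r of TP63 with anoikis likewise went from -0.52 to 0.06. KRT5, the basal keratin that hemidesmosomes anchor, was high throughout, between 9.98 and 11.85.

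Peaks of V5-tagged p53 at these genes were counted in each list. A promoter was taken as 2500 bp upstream to 100 bp downstream of any annotated transcript start, and peaks needed 1 bp of overlap. In the WTOE list 2 of 8 members, CD151 and PLEC, had a promoter peak, beside 6.72% of tested genes. In R273H no member did, beside 2.68%. In Y220C and in Y234C it was PLEC alone, beside 0.25% and 1.19%, and in R273C none, beside 0%. The lists differ in size, from 733 summits in R273C to 25309 in R273H, and each comes from 1 line.

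PLEC accounts for most of these. Its gene body or upstream 2500 bp held 6 peak regions in WTOE, 7 in Y234C, 1 in R273H and 1 in Y220C. The genes around it were also often marked. Of 75 other tested genes within 5 Mb of PLEC, 46.7% had a promoter peak in WTOE and 24% in Y234C, against 5.33% in R273H. The part of this neighbourhood in the PLEC peaks was not tested. For CD151, the WTOE peak at chr11:834326-834652 had a fold enrichment over input of 2.86 and its summit lay 124 bp upstream of the nearest annotated start, within an intron of longer transcripts. Of its 62 tested neighbours 11.3% had a promoter peak in WTOE.

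Counting the whole gene with its upstream 2500 bp, WTOE marked 3 of 8 members, beside 18.3% of tested genes, and R273H 4 of 8, beside 9.71%. Y220C and Y234C marked PLEC only, beside 1.6% and 2.94%, and R273C none, beside 0.0676%. These shares take no account of gene length, and DST, which spans 496844 bp, is among the 4. LAMA3, ITGA6 and ITGB4 had no peak in any list. In WTOE, LAMB3 held 2 peaks, at chr1:209626620-209626940 with a fold enrichment of 2.73 and at chr1:209627264-209627771 with 3.19, the latter with its summit in an exon. The 300 bases around that summit are shown as the stronger p53 peak at a laminin-332 gene. Of the 69 tested genes within 5 Mb of LAMB3, 31.9% had a promoter peak in WTOE. The shown bases hold no p53 consensus decamer, which was found within 150 bp of 6.96% of WTOE summits. The study reports a larger share of WTOE peaks with this motif, and why the shares differ was not tested.
LAMB3 peak, chr1:209627319-209627618, plus strand: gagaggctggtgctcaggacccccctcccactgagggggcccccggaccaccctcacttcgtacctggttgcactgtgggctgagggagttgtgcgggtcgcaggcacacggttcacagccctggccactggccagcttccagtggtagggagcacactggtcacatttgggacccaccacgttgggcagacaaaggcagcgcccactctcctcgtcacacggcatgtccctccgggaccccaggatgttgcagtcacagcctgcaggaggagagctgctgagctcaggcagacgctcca

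In R273H, the line where LAMB3 and COL17A1 were lowest, LAMB3 held a peak at chr1:209640351-209641095 with a fold enrichment of 3.24 and COL17A1 one at chr10:104067345-104067681 with 4.22, both with summits in introns. DST held one at chr6:56893972-56894560 with 4.82. No window of 300 bases around the summits at LAMB3, COL17A1 or DST held the decamer, which was found at 15.5% of R273H summits. The median fold enrichment of the whole R273H list was 4.54. In WTOE it was 3.08, beside 2.73 to 3.19 at LAMB3 and CD151.

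As for the cells themselves, all 10 mammary epithelial markers reached a level of 1 in at least 1 line of each group, and the 5 blood markers in none. Their summed level ran from 2415 to 3726 TPM in controls and from 1592 to 5419 TPM in mutants. Fibroblast markers summed to 2.39 to 7.53 TPM in controls and 2.66 to 60.7 TPM in mutants, and endothelial markers to 6.13 TPM at most, with COL1A2, VWF and PTPRC at 0 in all groups. The number of genes above 0 ran from 12122 in R273H to 15975 in Y163C. Over the 13 lines it correlated with the mean profile of the 8 genes with Pearson r of 0.05, and with -0.48 without R273H.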

How the data were processed

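RNA was measured in 13 MCF10A lines and V5-tagged p53 binding in 5. The authors amplified cDNA by single-primer isothermal amplification, a kit not described as keeping strand, aligned reads with STAR to Ensembl release 92 of GRCh38, dropped mitochondrial RNA and deposited log2 of TPM plus 1. ITGA6 overlaps ITGA6-AS1 and PDK1-AS1, ITGB4 overlaps GALK1, CD151 overlaps POLR2L and DST overlaps DST-AS1, whose reads cannot be told apart without strand. The authors deposited no counts among the files used here, so depth is unknown and no counting interval is given. They report high read duplication in the RNA libraries and a large mitochondrial share that differed between samples. Duplication in the p53 binding libraries is reported over a wide range. These limits bear on levels and peaks from 1 library per line, and their part in the results was not tested. For p53 binding the submitters' notes name Bowtie2 2.1.0, SAMtools 1.7, MACS2 2.1.2.20181017 and HOMER 4.9.1. Peaks were called by the authors against input at q of 0.05, 1 list per line. The deposited peak lists hold a score, the fold enrichment ratio over input, and −log10 p and q.

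Genes at a level of 1 or more in at least 3 lines were tested (14884 of 58358) with limma 3.58.1 in R 4.3.3, 1 fit per comparison, two-sided, with Benjamini-Hochberg adjustment over all tested genes and a threshold of 0.05. Scores entered as covariates in units of their SD over the 13 lines. They come from the study's supplement. The doxorubicin score was read as higher in more resistant lines, after its name there and the study's description of the assay. A remark elsewhere in the study's text reads the other way for R248Q and R248W, and the other reading would turn the wording, but not the estimates, of what is said of this score. Contact and structural lines were fitted without controls. Correlations are descriptions over 13 lines, 8 genes by 3 scores. The fit was tested on simulated data. Promoter sequences are from RefSeq (GRCh38.p14), with entries for 5 of 8 members, and gene spans from GENCODE release 44. The members, the partner list and the marker lists were chosen with earlier results of these data known. Partners were named where their unadjusted p was under 0.05, at most 4 per comparison, and so were the 5 genes most alike in profile by Pearson r. Some genes on these lists are not reported here. KRT5 and KRT14 were added after their values were seen. Alternatives were another pseudocount (0.1), no filter, quantile normalization, centring on the median, a mean-variance trend, detected genes as covariate, the mutant lines alone, leaving out each line or R273H and Y234C together, a 5000 bp promoter and a q of 0.01. Leaving out the lines of extreme score, and all settings for counts of members, were chosen after seeing the data.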

Additional observations from a re-analysis of the deposited data

Results flagged for a closer look

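Of 24 sets of 4 to 10 lines examined for a line far from the others, 5 held one by Dixon's test, which chance alone gives in about 1 of 20 sets. Among the 10 mutant lines, R273H stood apart for LAMB3, at 5.08 on the log2(TPM+1) scale, and for COL17A1, at 0.22. COL17A1 in R273H, at 0.22, also stood apart among the 4 contact lines. Among the 6 structural lines G245S stood apart for LAMA3, at 4.79, and for ITGA6, at 6.74. The sets share lines and genes and are not independent.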

How the results depend on the processing

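No paired analysis was possible because each line gave 1 library and the labels carry no replicate number, so that the numbers shared by mutants and controls only name samples in accession order. Of 328 estimates for the 8 genes under other settings 311 kept their direction, as did 462 of 496 with 1 line left out. The estimates of ITGA6, LAMA3 and COL17A1 kept theirs against polarity and apoptosis and in mutants against controls throughout. The adjusted p of members stayed above the threshold under all alternatives, the lowest being 0.0615 for ITGA6 against apoptosis with a mean-variance trend (range 0.0615 to 1). The cause of the changes below was not tested.

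Genes called in mutants against controls numbered 6 with the other pseudocount, 5 without a filter, 5 with detected genes as covariate, 8 without R273H and Y234C and 0 after centring. They ranged from 0 to 11 with 1 line left out, with 11 without WTKD, 8 without WT, 7 without R273H, 6 without Y234C, and 0 without G245S, H179R, R248W, Y163C or Y220C. For contact against structural lines they numbered 5 with the other pseudocount, 1 without a filter, 1 without R273H and Y234C, and 0 to 1 with 1 line left out. For apoptosis they numbered 6 with the trend, and for polarity 0 to 1 with 1 line left out.

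Members at an unadjusted p under 0.05 numbered 1 for polarity in mutants alone (2 to 4 with 1 line left out), 1 for anoikis without R273H and Y234C (0 to 1), 2 for apoptosis without the lines of extreme score (3 to 5) and 1 in mutants against controls with the other pseudocount (0 to 4, with 0 without WTKD or WTOE and 1 without WT or R273C). Members with no overlap of mutants and controls numbered 1 after centring and 2 to 3 with 1 line left out. For none of these counts is the share of all tested genes under the same setting given, so they describe the members only.

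Direction turned only for estimates whose unadjusted p was above 0.05. Against polarity, ITGB4 became 0.087 without R273H and Y234C and 0.056 in mutants alone, DST 0.11 in mutants alone, and PLEC -0.21 without the lines of extreme score. Against anoikis, LAMB3 became 0.064, ITGB4 0.0016 and CD151 0.022 without R273H and Y234C, LAMA3 0.43, LAMB3 0.000147, ITGB4 0.069 and DST 0.27 in mutants alone, and DST 0.14 without the lines of extreme score. Against apoptosis, CD151 became -0.019 after centring and ITGB4 -0.13 without the lines of extreme score. After centring, PLEC became 0.048 in mutants against controls and ITGB4 -8.1e-05 in contact against structural lines, where LAMA3 became 0.13 without R273H and Y234C.

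With 1 line left out, estimates that turned ranged for polarity from -0.78 to 0.060 (ITGB4) and -0.30 to 0.13 (PLEC). For anoikis they ranged from -0.29 to 0.056 (LAMA3), -0.20 to 0.070 (LAMB3), -0.15 to 0.013 (ITGB4), -0.22 to 0.020 (CD151) and -0.22 to 0.083 (DST). For apoptosis CD151 ranged from -0.071 to 0.20, and in mutants against controls PLEC from -0.38 to 0.14. In contact against structural lines the ranges were -1.37 to 0.063 (LAMA3), -0.44 to 0.65 (ITGB4), -0.19 to 0.28 (CD151) and -0.29 to 0.16 (DST).

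With a promoter of 5000 bp on each side, members with a promoter peak numbered 2 in R273H instead of 0, and at a q of 0.01 they numbered 1 in WTOE instead of 2. The share of all tested genes is not given for these settings, and a wider window can raise it too.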
